A study of Mus musculus with 19 samples.

Results

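Alarmins and antimicrobial peptides made by epithelium were followed through 8 named genes, S100a8, S100a9, S100a7a, Lcn2, Saa3, Slpi, Defb4 and Defb14, taken by symbol from a table of 24689 genes measured in the tongue epithelium of 19 mice. All 8 were listed, and all 8 were among the 22745 genes tested, which are those with at least 0.1 transcripts per 1000000 (TPM) in at least 3 mice. The study used bulk RNA sequencing to ask how viral oncogenes and an active form of the transcriptional co-activator YAP, alone and together, alter this tissue soon after they are switched on. The 5 N mice were the controls, and they were of mixed genotype: N 1, N 2 and N 3 were Krt14-CreERT/LSL-rtTA, N 4 was LSL-rtTA with no Cre, and N 5 was Krt14-CreERT/tetON_E6-E7/tetON_YAP1S127A with no rtTA. The 5 E mice were Krt14-CreERT/LSL-rtTA/tetON_E6-E7, in which E6-E7 stands for the oncogenes of the human papillomavirus HPV16. The 3 Y mice were Krt14-CreERT/LSL-rtTA/tetON_YAP1S127A, which gives a constitutively active YAP1. The 6 EY mice carried all 4 of these alleles. The paper's genotypes for N, E, Y and EY also list a doxycycline-induced reporter, tetON_H2B-GFP. Animals were 8 to 16 weeks old, received 3 doses of tamoxifen into the tongue and a doxycycline diet, and gave their tissue 15 days after induction.

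The Krt14 promoter confines the Cre to basal keratinocytes, whereas RNA came from the whole separated epithelium, so layers above the basal cells and any blood-borne or stromal cells left in it were read together. In such bulk samples fewer cells of a type and less RNA per cell cannot be told apart. The tissue label was checked against 16 genes of oral epithelium, all of which were tested. Their summed level was 103956 to 183350 TPM in N, 102921 to 167317 TPM in E, 81013 to 172182 TPM in Y and 65854 to 109667 TPM in EY. All EY mice but EY 1 lay below every N mouse. Krt13, a keratin of differentiated oral epithelium, was the highest of the 16 genes in mean TPM. In EY against N, 3 of the 16 were higher (Krt14, Krt17 and Cdh1) and 6 were lower (Krt15, Krt13, Krt4, Krt76, Ivl and Lor). The higher count was 5 without N 2 and N 3. After the median-of-ratios scaling given below it was 2, with Cdh1 going from 1.16 to 0.78 on the log2 scale. In Y against N, Krt17 was higher (2.10, limma adjusted p = 2.6e-05) and Krt76 lower (-2.50, limma adjusted p = 0.0041). The Krt76 change did not pass without N 4, Y 1 or Y 2, among others. The mix of epithelial transcripts thus differed from N in Y as well as in EY. The part of this shift in the changes given here was not tested.

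Each mouse contributed between 8269674 and 11007304 reads assigned to genes, as recovered from the steps of the deposited values. The length by which those values had been divided matched a gene's genomic span, introns included, to within 1% for 98.6% of 20439 genes compared, and its summed exon length for 0.8%. TPM values, and sums of them over a list, are therefore compared here between mice. An exception is the gene named as highest in mean TPM of a list, a rank that gene span affects. Where a level is compared between genes, the scale is reads per kb of exon per 1000000 reads.

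Several libraries stood apart and are named with the results they touch. The secretory salivary gland genes Bpifa2, Dcpp1, Dcpp2 and Lpo summed to 44.5 TPM in N 2 and 81.0 TPM in N 3, and to at most 0.135 TPM in any other mouse. Tongue muscle genes summed to 1366.4 TPM in EY 3, against 231 TPM in the next EY mouse. N 1 had the highest sums among N for monocyte and macrophage genes (253 TPM, next 76.5 TPM) and for fibroblast genes (293 TPM). EY 6 had the lowest level of its group for all 8 genes.

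The genes act at the surface that meets microbes. S100a8 and S100a9 encode the subunits of calprotectin, which withholds zinc and manganese from microbes and acts as a danger signal when released; it is abundant in neutrophils and is also made by keratinocytes of stressed or inflamed epithelium. Lipocalin 2 (Lcn2) captures bacterial iron carriers, serum amyloid A3 (Saa3) is an acute-phase protein made outside the liver, the protease inhibitor Slpi restrains neutrophil elastase, and beta-defensins such as Defb4 and Defb14 are small cationic peptides that damage microbial membranes. S100a7a belongs to the same S100 family of calcium-binding proteins and is a relative of human psoriasin.

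S100a7a, S100a8 and S100a9 are consecutive protein-coding genes on mouse chromosome 3, and Defb14 and Defb4 are neighbours on chromosome 8. Lcn2 and Slpi lie on chromosome 2 and Saa3 on chromosome 7. RefSeq promoter sequences were matched for 6 of the 8 genes, all but Defb4 and Defb14. The 250 bases before the start are shown for the calprotectin pair, for their neighbour S100a7a and for Lcn2, because S100a8, S100a9 and Lcn2 had their highest means in the Y and EY groups while S100a7a did not. On build GRCm38.p6 these windows are chr3:90668821-90669070 on the plus strand for S100a8, chr3:90695722-90695971 on the minus strand for S100a9, chr3:90654052-90654301 on the plus strand for S100a7a and chr2:32387740-32387989 on the minus strand for Lcn2. Capitals mark letters that matched a searched motif.
S100a8: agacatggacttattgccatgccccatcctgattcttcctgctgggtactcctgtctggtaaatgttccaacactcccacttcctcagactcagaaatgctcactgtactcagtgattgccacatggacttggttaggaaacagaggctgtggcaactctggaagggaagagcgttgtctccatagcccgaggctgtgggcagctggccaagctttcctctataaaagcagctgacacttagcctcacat
S100a9: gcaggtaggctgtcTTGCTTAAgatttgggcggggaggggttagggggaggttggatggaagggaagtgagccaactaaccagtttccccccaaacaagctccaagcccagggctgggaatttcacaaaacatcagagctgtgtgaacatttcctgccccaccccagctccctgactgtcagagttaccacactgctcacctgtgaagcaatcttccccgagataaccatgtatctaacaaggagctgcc
S100a7a: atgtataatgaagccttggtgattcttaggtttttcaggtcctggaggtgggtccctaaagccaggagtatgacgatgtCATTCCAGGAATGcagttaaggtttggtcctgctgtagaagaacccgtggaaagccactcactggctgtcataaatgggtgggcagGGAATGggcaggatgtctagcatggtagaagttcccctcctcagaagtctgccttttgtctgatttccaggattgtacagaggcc
Lcn2: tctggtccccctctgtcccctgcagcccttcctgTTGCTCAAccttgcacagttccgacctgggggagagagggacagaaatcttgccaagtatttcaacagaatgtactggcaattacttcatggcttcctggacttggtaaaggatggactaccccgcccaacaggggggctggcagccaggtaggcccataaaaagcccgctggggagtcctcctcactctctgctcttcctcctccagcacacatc

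The motifs searched on both strands were CATTCC (TEAD, the factors to which YAP binds), TGANTCA (AP-1), TTGCNNAA (C/EBP), GGANNTTCC (NF-kB) and TTCNNNGAA (STAT). Over 32851 promoter windows of the same length, the share holding each was 12.6%, 6.75%, 9.56%, 3.59% and 7.02% in that order. The S100a8 window held none of them. S100a7a held CATTCC at 171, 164 and 85 bases before its start, and a STAT match at 169 bases that overlapped the pair of TEAD matches next to it. The C/EBP letters were found at 236 bases before the start of S100a9 and at 216 bases before that of Lcn2. They were also found at 99 bases before the start of Saa3 (chr7:46715677-46715926, minus strand) and at 241 bases before that of Slpi (chr2:164356508-164356757, minus strand), whose sequences are not shown. A match describes letters in a window and says nothing of binding.

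Every change is a difference of log2(TPM + 0.1), a scale that understates the change of a gene near 0, and a gene was called when its limma adjusted p was below 0.01 and its absolute log2 fold change above 1. The comparisons with N share the same 5 control mice, so their values are given side by side and no likeness between them is drawn. In EY against N, 4 of the 8 genes were called higher (S100a8, S100a9, Lcn2 and Defb14), against 12.6% of all genes tested, and Defb4 was called lower, against 5.71% of all genes. In Y against N, 3 of the 8 were called higher (S100a8, S100a9 and Defb14), against 3.47% of all genes. In E against N, limma called 0 of the 8, against 1.20% of all genes, and voom on the recovered reads also called 0. An unadjusted p under 0.05 was reached there by 0 of the 8, against 3358 of all 22745 genes in either direction. The number of all genes at that limit was 11043 in EY against N and 6562 in Y against N. The median log2 fold change of the 8 genes against N was 2.05 for EY, 1.14 for Y and 0.23 for E, beside all-gene medians of 0.33, 0.13 and 0.07. Median-of-ratios scaling brought those all-gene medians to 0.01, -0.03 and -0.02. It also moved the share of all calls that were higher, from 68.8% to 43.8% in EY and from 75.8% to 57.2% in Y against N. The scaled value of each called member change against N is given below beside the unscaled value.

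**Figure D1:**
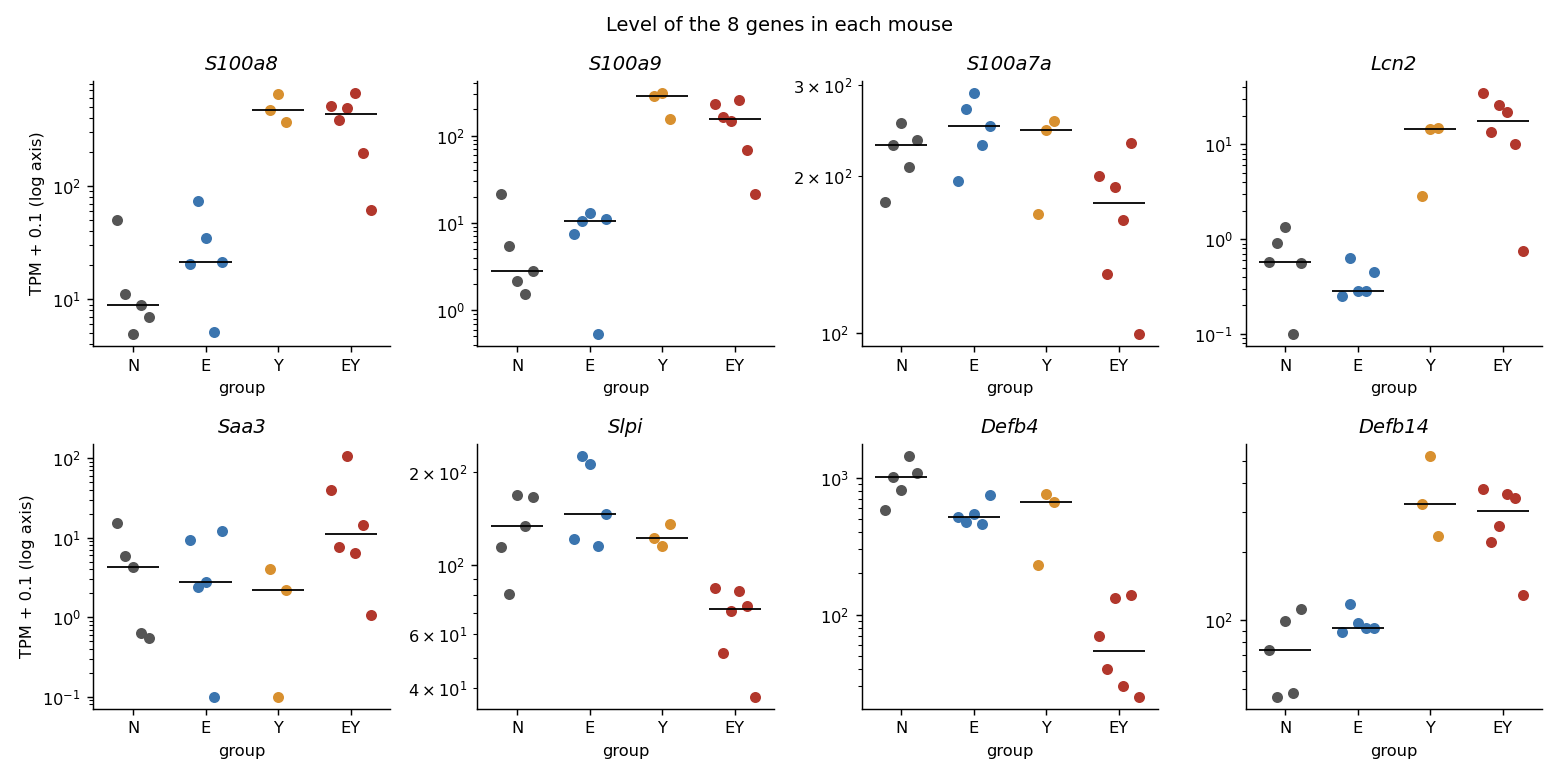
TPM + 0.1 of each of the 8 genes (log axis) in every mouse, by group, with each point a mouse, the line the group median and a value of 0 drawn at 0.1. S100a8, S100a9 and Defb14 were higher in all Y and EY mice than in any N mouse, and Defb4 was lower in all EY mice than in any mouse of the other groups.

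S100a8 was at 49.6, 11.1, 4.84, 8.84 and 6.82 TPM in N 1 to N 5 and at 20.2, 74.2, 34.9, 5.06 and 21.4 TPM in E 1 to E 5. It reached 471, 653 and 363 TPM in the 3 Y mice, and in the 6 EY mice it ranged from 61.0 through a median of 434 to 659 TPM. All Y and all EY mice lay above the highest N mouse, and all but EY 6 lay above the highest E mouse. S100a8 rose by 4.75 in EY against N on the log2 scale (SE 0.71, adjusted p = 3.1e-05, 27.0-fold, higher in 6 of 6 mice) and by 4.38 after median-of-ratios scaling. In Y against N it rose by 5.44 (SE 0.85, adjusted p = 3.43e-04, 43.3-fold, higher in 3 of 3 mice), or 5.24 scaled. In E against N the difference was 1.02 (SE 0.74, adjusted p = 0.600), with only E 2 above N 1, and reads were few in both groups, from 8 to 92 per mouse in N and from 8 to 121 in E.

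S100a9 followed the same order of groups at its own scale. Its level was 21.0, 5.31, 2.07, 1.43 and 2.69 TPM in N 1 to N 5, and 7.27, 10.3, 12.8, 0.433 and 10.96 TPM in E 1 to E 5. The Y mice were at 283, 306 and 157 TPM, and the EY mice ran from 21.1 through a median of 155 to 257 TPM. EY 6, the lowest of its group, was barely above N 1, the highest control, while the N and E mice overlapped. S100a9 rose by 4.80 in EY against N (SE 0.85, adjusted p = 1.88e-04, 27.9-fold, higher in 6 of 6 mice; 4.43 scaled) and by 5.89 in Y against N (SE 1.03, adjusted p = 8.42e-04, 59.2-fold, higher in 3 of 3 mice; 5.70 scaled). Without N 1 these values were 5.40 and 6.49, and with only the 3 N mice of the Krt14-CreERT/LSL-rtTA genotype they were 4.16 and 5.25. The difference in E against N was 0.49 (SE 0.89, adjusted p = 0.876), which was -0.15 with those 3 N mice alone and ran from 0.142 to 1.34 as single mice were left out, the highest without E 4.

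Because both calprotectin subunits are needed for the complex, their ratio was read in each mouse per kb of exon. The median ratio of S100a8 to S100a9 was 0.862 for the N mice, 1.02 for E, 0.778 for Y and 0.989 for EY. It ran from 0.607 to 0.847 in Y and from 0.809 to 1.23 in EY. The highest values were 4.27 in E 4, 2.64 in E 2 and 2.25 in N 4, which had 2, 49 and 9 S100a9 reads.

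S100a7a, their neighbour on the chromosome, was abundant in every mouse and differed little. It was at 179, 230, 253, 208 and 235 TPM in N 1 to N 5, at 196, 270, 289, 229 and 250 TPM in E 1 to E 5, and at 169, 246 and 255 TPM in the Y mice. In EY it ran from 99.5 (EY 6) through a median of 178 to 232 TPM. The groups overlapped, with EY 2, EY 4 and EY 6 below every N mouse. No comparison called it: EY against N was -0.43 (SE 0.19, adjusted p = 0.0791), Y against N 0.00 (SE 0.23, adjusted p = 1.00) and E against N 0.16 (SE 0.20, adjusted p = 0.806). After scaling the difference in EY was -0.81 (adjusted p = 0.00332), still short of the fold limit, and the Y value turned to -0.20. The Y value, at 0.00, changed sign without N 1, N 4, Y 2 or Y 3, ranging from -0.11 to 0.19 as single mice were left out. Of the 50-base stretches of its exons, 6.44% also occur in other genes, so a small part of its reads may be shared.

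Lcn2 was close to 0 outside the groups with active YAP. N 1 to N 5 were at 0.472, 0.809, 1.24, 0 and 0.460 TPM, and E 1 to E 5 at 0.151, 0.537, 0.182, 0.185 and 0.347 TPM, which amounts to at most 7 reads in a mouse. The Y mice were at 2.79, 14.57 and 14.98 TPM, and the EY mice ran from 0.654 through a median of 17.6 to 34.7 TPM. Every Y mouse lay above every N and E mouse, as did every EY mouse but EY 6, which had 4 reads and fell inside the range of N. Lcn2 rose by 4.43 in EY against N (SE 0.86, adjusted p = 4.26e-04, 21.5-fold, higher in 5 of 6 mice; 4.14 scaled). That value was 5.21 without EY 6, 3.83 without N 4 and 3.67 with the 3 N mice of a single genotype, while voom on the recovered reads gave 4.36 and did not call it (adjusted p = 0.0162). It also moved with the pseudocount, from 3.12 at 1 TPM to 5.21 at 0.01 TPM, and to 5.15 without the N mice with gland transcripts. In Y against N the difference was 4.04 (SE 1.04, adjusted p = 0.0125), which did not pass the threshold although all 3 Y mice were above all N mice. It ran from 3.45 to 4.83 as single mice were left out. Its adjusted p then ran from 0.00129 without EY 6, which gave a call, to 0.0705. It was also called, narrowly, with a filter at 1 TPM, and with the mouse number as a block, which takes up EY 6 in full (3.71, adjusted p = 0.00588). The value ran from 2.67 at a pseudocount of 1 TPM to 4.84 at 0.01 TPM. Over all alternatives the adjusted p reached 0.0900. For E against N it was -0.55 (SE 0.90, adjusted p = 0.857), from -1.15 to -0.21 as single mice were left out, and 0.17 without the N mice with gland transcripts.

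Saa3 varied more within groups than between them. It was at 15.2, 5.70, 4.15, 0.531 and 0.449 TPM in N 1 to N 5, at 9.17, 2.27, 2.67, 0 and 11.9 TPM in E 1 to E 5, and at 3.90, 0 and 2.12 TPM in the Y mice. The EY mice ran from 0.959 (EY 6) through a median of 10.9 to 107 TPM, the highest being EY 3, the library rich in muscle transcripts. Only EY 1 and EY 3 exceeded N 1, and all 4 groups overlapped. No comparison called it, with 2.19 in EY (SE 1.40, adjusted p = 0.233), -1.47 in Y (SE 1.69, adjusted p = 0.625) and -0.17 in E against N (SE 1.47, adjusted p = 0.985). As single mice were left out the EY value ran from 1.56 to 2.89, and with the 3 N mice of a single genotype it was 0.744 (adjusted p = 0.766). The Y value was 0.17 without Y 2, whose Saa3 was 0. The E value changed sign without N 1, N 2, N 3 or E 4, reaching 0.97 without E 4. Across 4.15% of its 50-base exon stretches Saa3 shares sequence with other genes.

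Read per kb of its longest coding transcript, Slpi was the most abundant of the 8 genes in every group but N, where only Defb4 exceeded it. N 1 to N 5 were at 115, 80.3, 169, 134 and 165 TPM, E 1 to E 5 at 121, 225, 213, 115 and 147 TPM, and the Y mice at 122, 116 and 135 TPM. In EY it ran from 37.5 (EY 6) through a median of 72.2 to 84.1 TPM. All 6 EY mice lay below every E and every Y mouse, and 4 of 6 lay below every N mouse. In EY against N the difference was -0.99 (SE 0.24, adjusted p = 0.00296), which missed the fold limit by little: it was called after median-of-ratios scaling (-1.37), by voom (-1.16), without the N mice with gland transcripts (-1.09) and, among single mice left out, without N 1 (-1.03), N 2 (-1.16), EY 1 (-1.07), EY 3 (-1.02), EY 4 (-1.07) or EY 5 (-1.03). Over all single mice left out it ran from -1.16 to -0.84, the weakest without EY 6, with adjusted p up to 0.0106 without N 5. In Y and in E against N the differences were -0.04 (SE 0.29, adjusted p = 0.945) and 0.30 (SE 0.25, adjusted p = 0.669), and that in Y changed sign without N 3, N 5 or Y 2, to at most 0.05. An exon of Slpi overlaps the microRNA gene Mir7678.

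**Figure D2:**
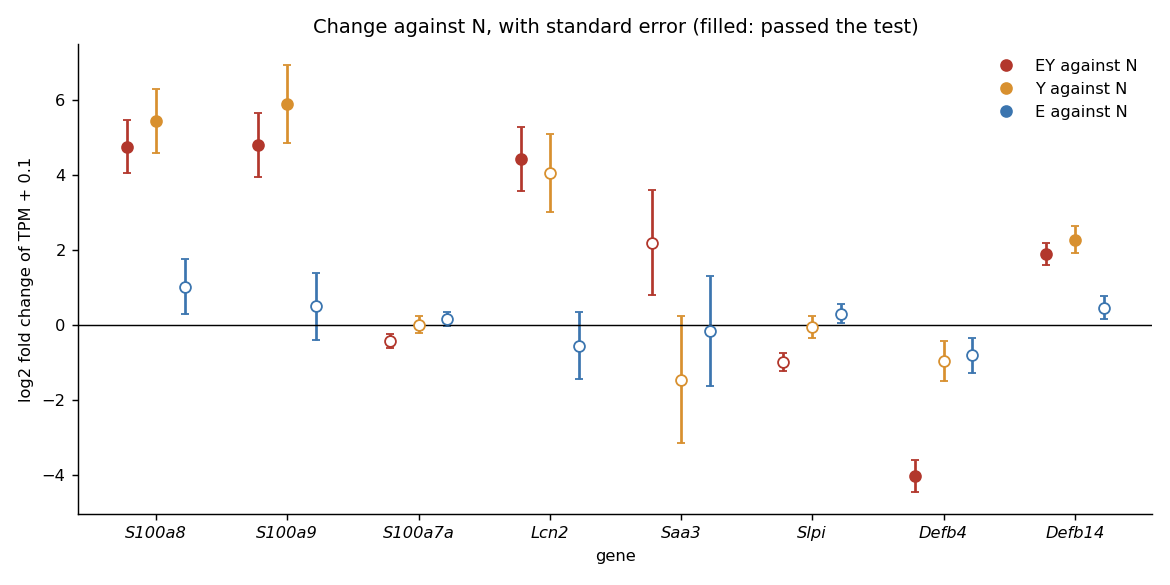
Log2 fold change of TPM + 0.1 against N for each of the 8 genes in EY, Y and E, with bars of 1 standard error and filled points where the change was called. S100a8, S100a9 and Defb14 were called higher in both EY and Y, Lcn2 was called higher in EY, Defb4 was called lower in EY, and no gene was called in E.

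Defb4 was at 582, 1016, 816, 1448 and 1091 TPM in N 1 to N 5. The E mice were at 516, 476, 540.1, 461 and 747 TPM and the Y mice at 229, 760 and 671 TPM. In EY it ran from 25.0 through a median of 54.5 to 138 TPM, and every EY mouse lay below every mouse of the other 3 groups. Defb4 fell by 4.03 in EY against N (SE 0.44, adjusted p = 1.1e-06, lower in 6 of 6 mice), a change of -4.40 after scaling, leaving 0.0614 of the control level. In Y and E against N the differences were -0.96 (SE 0.53, adjusted p = 0.253) and -0.81 (SE 0.46, adjusted p = 0.457). Y 1 and 4 of the 5 E mice were below every N mouse. Defb4 shares 5.68% of its 50-base exon stretches with Defb8, which is not in the table.

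Defb14, the adjacent gene, went the other way. It was at 74.0, 45.9, 98.8, 47.8 and 112 TPM in N 1 to N 5 and at 88.4, 117, 97.2, 92.3 and 92.4 TPM in E 1 to E 5. The Y mice reached 326, 530 and 234 TPM, and the EY mice ran from 129 through a median of 302 to 378 TPM. No Y or EY mouse overlapped N or E. Defb14 rose by 1.90 in EY against N (SE 0.29, adjusted p = 4.9e-05, 3.73-fold, higher in 6 of 6 mice; 1.52 scaled) and by 2.27 in Y against N (SE 0.36, adjusted p = 3.31e-04, 4.84-fold, higher in 3 of 3 mice; 2.08 scaled). The E mice differed from N by 0.45 (SE 0.31, adjusted p = 0.565).

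Read per kb of exon, the balance between the defensins turned over between groups. The ratio of Defb14 to Defb4 was 0.0852, 0.0303, 0.0811, 0.0221 and 0.0685 in N 1 to N 5, and 0.115, 0.165, 0.121, 0.134 and 0.0829 in E 1 to E 5. It was 0.953, 0.467 and 0.234 in the Y mice, and in EY it ran from 1.31 through a median of 3.56 to 7.998. Defb14 thus exceeded Defb4 in all 6 EY mice and in no other mouse. The Y mice lay between the E and EY mice with no overlap on either side. No test was run on this ratio.

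**Figure D3:**
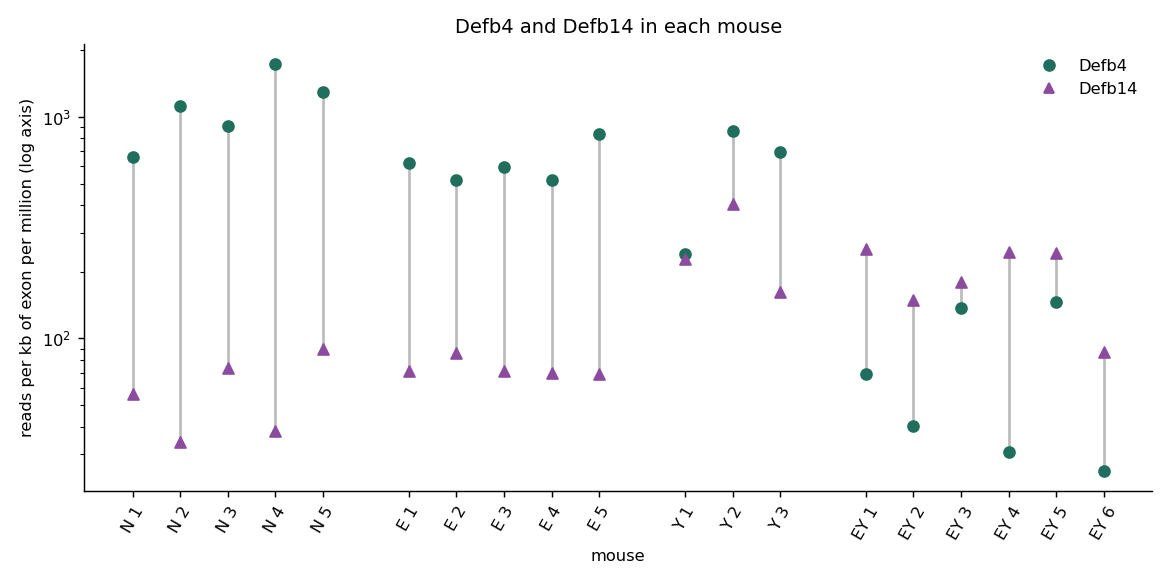
Reads per kb of exon per 1000000 reads (log axis) of Defb4 (circles) and Defb14 (triangles) in each of the 19 mice, joined by a line within a mouse. Defb4 lay above Defb14 in all N, E and Y mice and below it in all 6 EY mice, where the ratio of Defb14 to Defb4 was at least 1.31.

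On the same scale per kb of exon, the rank of the 8 genes differed between groups. In N the means were highest for Defb4 (1145) and Slpi (977), followed by S100a7a (147), Defb14 (58.3), S100a9 (7.05), S100a8 (6.45), Saa3 (1.58) and Lcn2 (0.425). In EY the mean of Slpi was 437, and next came Defb14 (193), S100a9 (143), S100a8 (135), S100a7a (101) and Defb4 (74.8), above Lcn2 (11.5) and Saa3 (8.09). Slpi was thus the highest of the 8 in Y (852) and E (1175) as well as in EY. The Slpi and Saa3 figures are uncertain, since their coding transcripts run from 488 to 876 and from 555 to 2200 bases and the longest was used. With the shortest, the mean of Slpi in N is 1754, above Defb4, and that of Saa3 in EY is 32.1, above Lcn2.

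In 4 of the 8 genes, S100a8, S100a9, Defb4 and Defb14, the EY and N mice did not overlap, against 27.4% of all genes tested, and in 4 (S100a8, S100a9, Lcn2 and Defb14) the Y and N mice did not, against 21.1%. For E and N the count was 0, against 4.57%. By mean TPM, S100a8, S100a9 and Defb14 had the order N, E, EY, Y, in which N did not differ from E, nor EY from Y, beyond the spread. Lcn2 had the order E, N, Y, EY, in which no neighbouring pair passed the test, the step from N to Y included. Defb4 had the order EY, E, Y, N, in which only EY was separated from its neighbour. For Slpi the order was EY, Y, N, E, for S100a7a it was EY, N, Y, E and for Saa3 it was Y, E, N, EY, and in these no neighbouring pair passed the test, although every EY mouse had less Slpi than every Y mouse.

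Set against E rather than N, EY mice had 4 of the 8 genes called higher (S100a8, S100a9, Lcn2 and Defb14), against 7.82% of all genes, and 2 called lower (Slpi and Defb4), against 4.99%. S100a8 was higher by 3.73 (SE 0.71, adjusted p = 4.52e-04) and S100a9 by 4.31 (SE 0.85, adjusted p = 6.69e-04), or 3.46 without E 4. Lcn2 was higher by 4.98 (SE 0.86, adjusted p = 1.90e-04) and above every E mouse in 6 of 6 EY mice; the value was 5.76 without EY 6 and 3.39 at a pseudocount of 1 TPM, and voom gave 4.83 with an adjusted p of 0.0128. Defb14 was higher by 1.45 (SE 0.29, adjusted p = 8.43e-04). Slpi fell by 1.29 (SE 0.24, adjusted p = 4.12e-04) and Defb4 fell by 3.21 (SE 0.44, adjusted p = 2.0e-05), each in 6 of 6 mice.

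In Y against E, 4 of the 8 were called higher (S100a8, S100a9, Lcn2 and Defb14), against 1.67% of all genes, with 3 Y mice behind each value. S100a8 was higher by 4.42 (SE 0.85, adjusted p = 0.00325) and S100a9 by 5.40 (SE 1.03, adjusted p = 0.00301; 4.55 without E 4). Both lost the call when Y 1, Y 2 or Y 3 was left out, with adjusted p values of 0.0123 to 0.0200 for S100a8 and 0.0128 to 0.0177 for S100a9, and when only those groups were fitted, at 0.0161 and 0.0225. Defb14 was higher by 1.82 (SE 0.36, adjusted p = 0.00351) and lost the call without Y 1 (adjusted p = 0.0117) or Y 2 (adjusted p = 0.0286). Lcn2, higher by 4.60 (SE 1.04, adjusted p = 0.00887; 5.38 without Y 1), lost the call under 20 of 34 alternatives. It was 2.95 at a pseudocount of 1 TPM (adjusted p = 0.0150), and voom gave 4.62 with an adjusted p of 0.0675. The adjusted p was also between 0.0111 and 0.0584 without N 1, N 2, N 5, any E mouse, Y 2, Y 3, EY 2, EY 4 or EY 5, and it was 0.0108 after scaling.

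Adding the oncogenes to active YAP was read in EY against Y, where only Defb4 was called, lower, against 0.928% of all genes. Defb4 fell by 3.07 (SE 0.51, adjusted p = 0.00147, lower in 6 of 6 mice; -3.25 scaled). The call was lost when only those groups were fitted (adjusted p = 0.0280), without Y 2 (-2.75, adjusted p = 0.0131) and without Y 3 (-2.84, adjusted p = 0.0120). Slpi was lower in all 6 EY mice than in any Y mouse but was not called, at -0.95 (SE 0.28, adjusted p = 0.0454). The other members were not separated: S100a8 at -0.68 (adjusted p = 0.664), S100a9 at -1.09 (adjusted p = 0.549), Lcn2 at 0.39 (adjusted p = 0.855; -0.40 without Y 1), Defb14 at -0.37 (adjusted p = 0.549), S100a7a at -0.43 (adjusted p = 0.248) and Saa3 at 3.66 (adjusted p = 0.184; 2.02 to 4.68 as single mice were left out).

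Whether both transgenes together gave more or less than their separate changes added up was tested as an interaction. Limma called 0 of the 8 there, against 0.176% of all genes, and voom called 0. An unadjusted p under 0.05 was reached by 2 of the 8, Slpi and Defb4, against 3072 of all 22745 genes. The interaction was -2.26 for Defb4 (SE 0.69, adjusted p = 0.138) and -1.25 for Slpi (SE 0.38, adjusted p = 0.138). It was -1.70 for S100a8 (SE 1.11, adjusted p = 0.530), -1.58 for S100a9 (SE 1.34, adjusted p = 0.652) and 0.94 for Lcn2 (SE 1.35, adjusted p = 0.806), 3.82 for Saa3 (SE 2.20, adjusted p = 0.469), -0.83 for Defb14 (SE 0.46, adjusted p = 0.452) and -0.58 for S100a7a (SE 0.30, adjusted p = 0.399). As single mice were left out it ran from -2.43 to -1.09 for S100a9, from 0.151 to 1.72 for Lcn2 and from 2.19 to 4.85 for Saa3. Defb4 was called against N for EY alone, and this test did not show that its change there went beyond the sum of the changes with each transgene by itself.

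Neutrophils also hold S100a8, S100a9 and Lcn2 transcripts, so their defining markers were read beside them. Of 17 marker genes 16 were in the table and 15 were tested. In EY against N, 4 of the 15 were called higher (Ly6g, Cd177, Mmp8 and Stfa2l1) with a median of 1.92 beside the all-gene 0.33; 7 were called without EY 6, and Cd177 lost its call without N 2, N 3, N 4, N 5, EY 1, EY 2, EY 3 or EY 4 (adjusted p up to 0.0165). Ly6g (2.87) was at 0.87 at a pseudocount of 1 TPM, short of the fold limit, and Stfa2l1 (3.31) was at 2.71 without the N mice with gland transcripts (adjusted p = 0.0230, not called). Limma called 0 of the 15 lower in EY against N, and voom with median-of-ratios library sizes called 1 lower. At an unadjusted p under 0.05, 8 markers were higher and 1 was lower. The lower marker was Il1r2 (-0.62, limma adjusted p = 0.0265). Mmp9 (-0.01) and Camp (-0.46) were not raised either. In Y against N limma and voom each called 0, with 1 of the 15 at an unadjusted p under 0.05 and a median of 0.85. The marker highest in mean TPM was Retnlg, and outside the EY group no mouse had Ly6g above 0. The summed level of the markers was 21.3, 25.0, 13.1, 5.76 and 9.32 TPM in N 1 to N 5, and 12.6, 8.35, 7.54, 7.41 and 20.6 TPM in E 1 to E 5. It was 28.5, 13.4 and 43.7 TPM in Y 1 to Y 3, and 98.6, 83.4, 54.6, 157, 28.7 and 6.33 TPM in EY 1 to EY 6. In N 2 and N 3, the mice with gland transcripts, Ltf alone gave 15.4 and 5.77 TPM of the sum. Its level was at most 0.0944 TPM in the other N mice. The number of the 16 markers at 0 was 4 to 9 in any mouse of N, E and Y, and in EY 1 to EY 6 it was 4, 1, 2, 3, 1 and 7.

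The members and the markers were also read together in single mice. Y 2 had the highest S100a8 (653 TPM) and S100a9 (306 TPM) of the Y mice and 14.57 TPM of Lcn2, while 9 of its 16 neutrophil markers, Ly6g, Retnlg and Cd177 among them, were at 0 and their sum of 13.4 TPM lay within the range of N. Y 1 and Y 3 had marker sums of 28.5 and 43.7 TPM, above every N and E mouse, with Retnlg at 10.8 and 21.2 TPM, against at most 1.52 TPM in N. In EY 6 the marker sum (6.33 TPM, with Ly6g, Retnlg and Cd177 at 0) was as low as in the lowest N mice; its S100a8 of 61.0 TPM was above every N mouse, its Lcn2 was not. EY 4 had both the highest S100a8 (659 TPM) and the highest marker sum (157 TPM). Defb14 in EY 6 was the lowest of its group as well, at 129 TPM, as was Defb4, at 25.0 TPM. How much of the calprotectin and Lcn2 signal came from neutrophils was not tested in any mouse.

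**Figure D4:**
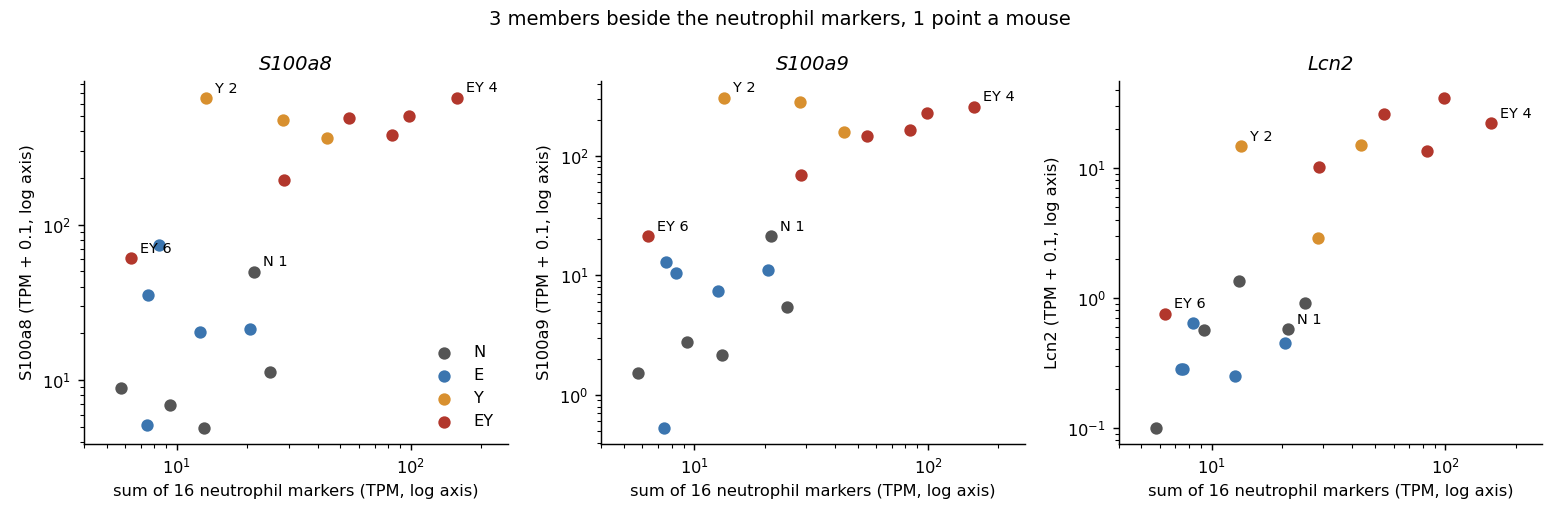
S100a8, S100a9 and Lcn2 (TPM + 0.1, log axis) against the sum of 16 neutrophil marker genes (TPM, log axis), with each point a mouse and colours for the groups. Y 2 has S100a8 at 653 TPM with a marker sum of 13.4 TPM, Y 1 and Y 3 have marker sums of 28.5 and 43.7 TPM, and EY 6 sits lowest among the EY mice on every axis.

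Other cell types that tongue epithelium could hold were read in the same way. Of 12 monocyte and macrophage genes, 0 were called by limma or by voom in EY against N, and 4 were called without N 1. At an unadjusted p under 0.05, 4 of the 12 were higher, beside 11043 of all 22745 genes in either direction. The median of these 12 genes was 1.23, and Cd68 was the highest of them in mean TPM. Their sums were 35.9 to 253 TPM over the N mice, 30.3 to 186 TPM over E, 43.2 to 72.4 TPM over Y and 104 to 163 TPM over EY. In Y, where S100a8, S100a9 and Defb14 were called higher, those sums lay inside the range of N, while the fibroblast sums, at 23.8 to 44.1 TPM, lay below every N mouse (61.5 to 293 TPM) and every E mouse (57.2 to 104 TPM). The fibroblast list had a median of -1.58 in Y against N, with 0 of 6 genes called by limma and 1 called lower by voom. T cell genes had 2 of 8 called higher in EY (median 1.69), or 1 without N 4, with Trbc2 the highest in mean TPM and sums of 1.66 to 18.2 TPM in N and 26.9 to 54.0 TPM in EY. Of the pan-leukocyte genes Ptprc, Laptm5 and Coro1a 0 were called by limma or voom in EY against N, with 1 higher at an unadjusted p under 0.05 and 1 called without N 1, and their sums were 2.34 to 26.1 TPM in N and 15.6 to 22.9 TPM in EY. Langerhans and dendritic genes had 1 of 6 higher (Epcam, which epithelium also expresses) and 1 lower (Cd207, not called without N 1) in EY. Limma called 0 of 8 muscle, 5 salivary gland, 3 endothelial and 4 erythrocyte genes in EY against N; 1 muscle gene was higher and 1 gland gene lower at an unadjusted p under 0.05, and voom called that 1 gland gene and 0 of the others. The muscle list had a median of 1.77, with 1 gene called higher without Y 2 or without EY 4, and 1 gland gene was called lower after scaling, without N 4 or without N 5. In EY the fibroblast list had 1 of 6 lower (Dcn). Saa3 was highest in N 1 among N and in EY 3 among EY, the mice with the highest fibroblast sum of N and the highest muscle sum of all. The highest fibroblast sum of EY, 153 TPM, was in EY 6, which had the lowest Saa3 of EY (0.959 TPM). The highest muscle sum of N, 264 TPM, was in N 2, with Saa3 at 5.70 TPM against 15.2 TPM in N 1. The part of these cell types in the members' changes was not tested.

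Related genes were counted in lists by role, 8 in all. The shares of all genes called, to be set beside the counts in these lists and the marker lists above, were 12.6% higher and 5.71% lower in EY and 3.47% higher and 1.11% lower in Y against N. In E against N limma called 0 of their 125 tested genes and voom called 1. There, 22 of the 125 had an unadjusted p under 0.05, beside 3358 of all 22745 genes. In EY and Y against N, voom with total library sizes too called 0 in these 8 lists wherever limma called 0 in a direction. With median-of-ratios library sizes voom called 1 gene of the IL-17, IL-22 and NF-kB list lower in EY. Among 10 other S100 genes, 4 were higher in EY (median 0.62 beside the all-gene 0.33) and 3 higher in Y (median 0.95 beside 0.13). S100a6, the next gene beside S100a7a, rose from 101 ± 16.8 TPM in N (SD, n = 5) to 686 ± 217 TPM in EY (SD, n = 6) and 595 ± 87.2 TPM in Y (SD, n = 3), by 2.72 and 2.56 on the log2 scale. S100a10 (2.58) and S100a11 (1.86) were higher in EY too, S100a3 (1.27) lost the call after scaling and without N 2, N 3, N 5 or any EY mouse but EY 3, and S100a14, the highest in mean TPM, was not called (0.38). In the list of receptors and signalling proteins for calprotectin, serum amyloid and lipocalin, 1 of 14 was higher, or 2 without N 1 or without EY 2, and 1 lower in EY (median 0.85), and 1 was higher in Y (median -0.12). The higher was the lipoprotein and serum amyloid receptor Scarb1 (1.98 in EY, 1.32 in Y, the call in Y being lost at a pseudocount of 1 TPM); the lower was the lipocalin receptor Slc22a17 (-1.89), not called without the N mice with gland transcripts (-1.50, adjusted p = 0.0127).

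Defb4 was not the only defensin or antiprotease to be low in EY. Of 15 other beta-defensins 4 were in the table, and 2 of them were lower in EY (median -1.84), with 0 called in Y (median -0.54; 1 higher and 1 lower at an unadjusted p under 0.05). Defb3, the highest in mean TPM, fell from 186 ± 66.0 TPM in N (SD, n = 5) to 26.5 ± 25.9 TPM in EY (SD, n = 6), a change of -3.19, and Defb6 changed by -3.71. In the list of whey acidic protein domain genes, to whose family Slpi belongs, and other epithelial antiproteases, 2 of 17 were higher and 7 lower in EY (median -0.43), and 1 was higher and 1 lower in Y (median -0.40), the lower count being 4 with voom, 3 without EY 4, 2 after scaling and 0 without N 1, among others. The serpins Serpinb3a (-4.11), Serpinb3b (-4.12) and Serpinb3c (-4.89) fell in EY; Serpinb3a, the highest in mean TPM, went from 4261 ± 1015 TPM in N (SD, n = 5) to 291 ± 155 TPM (SD, n = 6). Wfdc18 changed by -6.00, with all 6 EY mice below every N mouse. It was at -3.14 (adjusted p = 0.0251, not called) without N 2 and N 3, the N mice with gland transcripts. Its call also ended with voom (-5.80, adjusted p = 0.0389) and with only the groups compared (adjusted p = 0.0102). Stfa3 was lower in EY (-1.61) and Y (-1.58), though in Y not without N 1, N 2, N 3, N 5, Y 2 or Y 3, and Cstb was higher in both (1.37 and 1.23), though its call in EY ended after scaling (0.99).

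Among 13 other acute-phase genes, 2 were higher and 1 lower in EY (median 0.54) and 2 were higher in Y (median 0.00). Orm1 rose from 0.805 ± 1.10 TPM in N (SD, n = 5) to 52.3 ± 23.9 TPM in EY (SD, n = 6) and 84.0 ± 37.0 TPM in Y (SD, n = 3), by 6.56 and 7.30. Saa1, a relative of Saa3, fell in EY (-4.88). Steap4 (1.74) lost its call in EY without N 3, N 4, N 5, EY 1, EY 2, EY 3 or EY 4 (adjusted p up to 0.0210), and Il1rn, the highest in mean TPM, was called in Y (1.18), though not after scaling (0.98), and was at 0.85 in EY, with -0.33 between EY and Y (adjusted p = 0.253). Of 25 other secreted antimicrobial proteins, 7 were higher and 2 lower in EY (median 0.44) and 3 were higher in Y (median 0.45). With the 3 N mice of a single genotype the 7 became 4, without the N mice with gland transcripts the 2 became 0, and with only the groups compared the 3 in Y became 1. They included Chil3 (4.71), Plac8 (4.14, or 3.11 with those 3 N mice, not called at an adjusted p of 0.0125), Adm (4.02 in EY, 3.38 in Y) and the chemokine Ccl20 (4.61 in EY, 5.64 in Y), with Chil1 called in Y (4.22; adjusted p up to 0.0140 without Y 2 or Y 3) and at 1.79 in EY, a difference of -2.43 between EY and Y that was not called (adjusted p = 0.0673).

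Of 10 other alarmins and danger signals, 4 were higher and 4 lower in EY (median -0.56), against 2 and 5 after scaling, and 2 were higher and 1 lower in Y (median 0.31). Tslp (5.05 in EY, 3.99 in Y) and Anxa1, the highest in mean TPM (2.90 and 2.49), rose, while Il18 (-3.04) and Il36rn (-2.72) fell in EY. Il36rn encodes the IL-36 receptor antagonist and is counted in this list although it is not itself a danger signal. Il18 and Il36rn were lower in EY than in Y too, by -1.71 and -1.95 (adjusted p = 0.00208 for each). In Y, Tslp was not called without Y 2 or Y 3, nor Il18 (-1.32) without N 3, N 4, N 5 or any Y mouse. In the list of cytokines and regulators of the IL-17, IL-22 and NF-kB axis that acts upstream of antimicrobial genes, 13 of 32 were higher and 0 lower in EY (median 1.25; 2 lower at an unadjusted p under 0.05, and 1 called lower after scaling) and 8 were higher in Y (median 0.96), or 5 in Y without N 4, without Y 2, with the 3 N mice of a single genotype or with only the groups compared. Cxcl1 (5.19 in EY, 4.34 in Y) and Il17c (2.93 in EY, 5.19 in Y) were among them. In Y, Cxcl1 lost its call without N 4, N 5, Y 2 or Y 3 and with voom (adjusted p = 0.0115). In EY, Il17c lost its call without N 1, N 3, N 5 or EY 1. Cxcl3 (4.17) lost its call in EY without N 3, N 4, N 5, EY 1, EY 2 or EY 4. After median-of-ratios scaling neither Il17c nor Cxcl3 was called in EY (adjusted p = 0.0104 and 0.0134). Nor was Cxcl3 called with voom (adjusted p = 0.0547) or with the 3 N mice of a single genotype (3.38, adjusted p = 0.0669). Il23a changed by 4.40 in EY, and Cebpb, the highest in mean TPM, was not called (0.35). Csf3 was at 0 in every N mouse and at 15.9 ± 21.7 TPM in EY (SD, n = 6), where the highest mouse was at 54.8 TPM. In Y it was at 1.87 ± 1.02 TPM (SD, n = 3). Csf3 was called in EY and in Y (4.18 in Y, adjusted p = 0.00653). The call in Y was lost without any single N or Y mouse and with voom (adjusted p = 0.0711). Its difference of 1.91 between EY and Y was not called (adjusted p = 0.224).

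**Figure D5:**
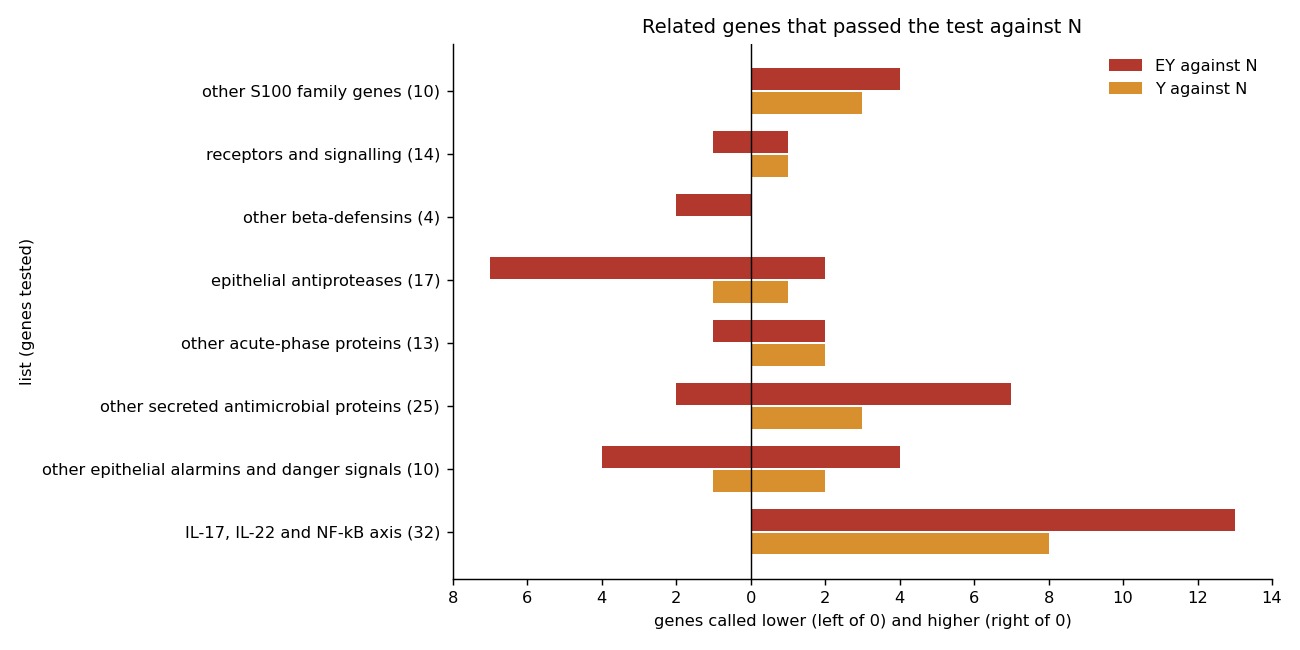
Number of genes called higher (bars to the right of 0) and lower (bars to the left) in EY and Y against N in each list, with the number tested in brackets. The IL-17, IL-22 and NF-kB list has 13 higher and 0 lower in EY, and the antiprotease list has 2 higher and 7 lower.

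The genes whose pattern over the 19 mice was most like each member were found among 15593 genes, by the Pearson r of log2(TPM + 0.1), which mixes differences between the 4 groups with those within them. For S100a8 they were S100a9 (r = 0.977), Sprr2f (0.959) and Sprr2d (0.937), and for S100a9 they were S100a8 (0.977), Sprr2f (0.938) and Il4ra (0.912). Sprr2f, a cornified envelope gene, averaged 8.87 TPM over N, 39.1 TPM over E, 524 TPM over Y and 311 TPM over EY, the order S100a8 had too. For Lcn2 they were Ctsh (0.937), Lsm7 (0.933) and Chmp2b (0.932), and for Defb14 Myl6 (0.950), Psca (0.941) and Ostf1 (0.927). Defb4 was most like Slurp1 (0.970), Slc28a3 (0.962) and Lyg1 (0.960), and Slurp1, a secreted protein of keratinocytes, averaged 243 TPM in N and 23.3 TPM in EY. Slpi was most like Anxa9 (0.931), Wfdc5 (0.926) and Asprv1 (0.924), S100a7a like Card14 (0.910), Crebl2 (0.891) and Cldn17 (0.884), and Saa3 like C3 (0.889), Vsir (0.868) and Hp (0.867). Each r is a description over these 19 mice.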

How the data were processed

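Poly-A selected RNA of the tongue epithelium of 19 mice in 4 groups was sequenced in bulk. Per the methods and processing notes, reads were aligned with STAR 2.7.9 to GRCm39, sorted with SAMtools 1.7 and counted per gene with HTSeq 0.13.5, and the study's own tests used DESeq2 1.34.0. The deposited values are TPM made by the authors, summing to 1000000 in each mouse; how the counts became this table is not given in the sources used here, and the length divided by matched the genomic span for 98.6% of genes compared. For gene set analysis the methods also describe TPM from Kallisto on the human transcriptome, with the highest transcript kept per gene, and do not tie it to this table. Because the unit is TPM, no count test was the main result: limma 3.58.1 in R 4.3.3 (lmFit, then eBayes with trend) was fitted to log2(TPM + 0.1) of the 22745 genes that reached 0.1 TPM in 3 or more mice, as 1 model of 4 group means with 7 comparisons and Benjamini-Hochberg adjustment over all genes tested. To be called, a gene had to pass 0.01 on its adjusted p and also change by over 1 on the log2 scale. Python 3.11.15 made the tables (pandas 2.3.3, numpy 2.4.6) and drew the figures (matplotlib 3.10.9). The fit and the recovery of reads were tested on simulated data.

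Whole reads were recovered from the steps of the TPM values for 24680 of 24680 genes above 0 in any mouse (100.0%, within 0.01 of a read), giving 8269674 to 11007304 reads a mouse, and were used for voom. No files of different mice were identical. Levels per kb of exon used the longest coding transcript of the annotation.

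The members and lists were chosen with earlier results of these data known. Named were all 8 members; from each of 8 lists up to 4 genes called in EY against N and up to 2 called in Y or E with the largest changes, and the gene highest in mean TPM; for each member the 3 genes of at least 1 TPM on average most like it; and, chosen after their values were seen, called cell type markers. Alternatives were pseudocounts of 0.01 and 1 TPM, no filter and a filter of 1 TPM, median-of-ratios and quantile scaling, robust eBayes, voom with total or median-of-ratios library sizes, only the groups compared, only the 3 N mice of the Krt14-CreERT/LSL-rtTA genotype, no N mice with over 1 TPM of gland transcripts (a subset and limit chosen after seeing the data), the mouse number as a block, each mouse left out, an adjusted p below 0.05 and no fold limit. The summed-TPM shares of the members were left out, since TPM divided by genomic span cannot be compared between genes. Labels do not state litters or batches.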

Additional observations from a re-analysis of the deposited data

Results flagged for a closer look

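In 57 groups of 5 or 6 mice, for the members and the summed cell type markers, a mouse was singled out when the gap between it and the next was large against the range of its group. Normally distributed values would meet this criterion in about 1 in 20 groups. It was met in 11 groups, 4 of them among the 24 groups of the members. Each mouse singled out was the highest of its group. TPM was read without a log and need not be normal, so the 11 cannot be set against that share. S100a8 was at 49.6 TPM in N 1, next 11.1 TPM, and S100a9 at 21.0 TPM in N 1, next 5.31 TPM. Saa3 was at 107 TPM in EY 3, next 39.9 TPM, and Defb4 at 747 TPM in E 5, next 540.1 TPM. Summed monocyte and macrophage markers were at 253 TPM in N 1, next 76.5 TPM. Tongue muscle markers were at 264 TPM in N 2, next 65.8 TPM, at 136 TPM in E 5, next 40.2 TPM, and at 1366.4 TPM in EY 3, next 231 TPM. Salivary gland markers were at 6.14 TPM in E 2, next 1.47 TPM, endothelial markers at 2.33 TPM in EY 3, next 0.796 TPM, and erythrocyte markers at 364 TPM in N 5, next 112 TPM.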

How the results depend on the processing

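Each of 56 results, a member in a comparison, was recomputed under up to 34 alternatives, of which 19 left out a single mouse. Of 1896 such values, 1817 kept their direction and their side of the threshold, 37 kept the direction but lost the call, 16 gained it and 26 changed sign. These counts are not a measure of stability, since part of the values was fixed by construction. A changed filter, robust eBayes or leaving out a mouse of a group not compared moves the adjusted p but not the fold change. An adjusted p below 0.05 and no fold limit can only add calls. The calls of S100a8, S100a9, Defb4 and Defb14 in EY against N and of S100a8, S100a9 and Defb14 in Y against N were kept under all 34. The number of the 8 genes called, 5 in EY against N, 3 in Y against N, 0 in E against N, 1 in EY against Y, 6 in EY against E, 4 in Y against E and 0 for the interaction, moved by more than 1.5 times in EY against Y, to 0 when only the groups compared were fitted and between 0 and 1 as single mice were left out, and in Y against E, to 2 and between 0 and 4. Fitting fewer mice leaves fewer residual degrees of freedom by construction.

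The sign changes were of differences that were called in no setting. S100a7a in Y against N was -0.20 with median-of-ratios scaling, -0.28 with quantile normalization, -0.10 with voom and -0.20 with voom on median-of-ratios library sizes. With the 3 N mice of the Krt14-CreERT/LSL-rtTA genotype, Slpi in Y against N was 0.10 and S100a9 in E against N was -0.15. In E against N, Lcn2 was 0.17 and Saa3 0.43 without the N mice with gland transcripts, and Saa3 was 0.0680 with a pseudocount of 1 TPM. As single mice were left out, Y against N ranged from -0.11 to 0.19 for S100a7a, from -2.49 to 0.17 for Saa3 and from -0.21 to 0.0548 for Slpi. Y against E ranged from -0.26 to 0.0338 for S100a7a, from -2.44 to 0.34 for Saa3 and from -0.46 to 0.40 for Defb4. Saa3 in E against N ranged from -0.75 to 0.97, and Lcn2 in EY against Y from -0.40 to 1.17. The cause was not tested.

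Mice with the same number in different groups did not deviate together: over 24 pairs the correlation of their deviations ran from -0.043 to 0.076, with 0 over 0.1. With the mouse number as a replicate block, S100a8 in EY against Y was 0.18, Lcn2 in Y against N was called (3.71, adjusted p = 0.00588), and no other call on a member changed. The number 6 occurs only in EY, so the block takes up EY 6 in full. Lcn2 in EY against N was 5.21 both with the block and without EY 6. The block is thus not a check separate from leaving out EY 6.

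Over all genes, the count called in EY against N was 4157 and 7248 with no fold limit. In Y against N it was 1042, and 657 with the 3 N mice of a single genotype, 615 with only the groups compared, 639 without Y 3, 1599 at an adjusted p below 0.05 and 1935 with no fold limit. The count in E against N was 274, against 150.0 with only the groups compared and 414 at 0.05. In EY against Y it was 454, and 211, 865 and 803 with only the groups compared, at 0.05 and with no fold limit, or 200.0, 254 and 263 without Y 1, Y 2 and Y 3. In EY against E it was 2914, and 5746 with no fold limit. In Y against E it was 563, and 223, 1016 and 986 in those settings, or 318 and 266 without Y 2 and Y 3. The interaction had 40, and 118 or 116 with voom on total or median-of-ratios library sizes, 73 without EY 3 and 148 at 0.05. Median-of-ratios scaling moved the share of calls that were higher from 68.8% to 43.8% in EY against N, from 75.8% to 57.2% in Y against N, from 53.5% to 30.3% in EY against Y, from 61.1% to 38.9% in EY against E and from 67.5% to 56.1% in Y against E, and reversed no called member. The voom fit with median-of-ratios library sizes and the fit without the gland mice were chosen after seeing the data. Few reads limit Lcn2 in N and E, at most 7 in a mouse, and Saa3, at 0 in E 4 and Y 2, and the number of Y mice, 3, limits every comparison with Y.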
